A study of Mus musculus with 6 samples.

Results

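The enzymes that write, copy and remove DNA methylation were followed in 6 lines of induced pluripotent stem (iPS) cells from the mouse. The genes were chosen by function: the maintenance genes Uhrf1 and Dnmt1, the de novo genes Dnmt3a, Dnmt3b and Dnmt3l, the TET dioxygenase genes Tet1, Tet2 and Tet3, and the glycosylase gene Tdg. Of these 9 genes, 8 had a probeset annotated to them alone, among 19938 genes measured on the array, and Tdg had none. Each gene was read by its brightest probeset, that with the highest mean over the 6 arrays.

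All 6 lines were made from embryonic fibroblasts of OG2 mice, a strain with an Oct4-driven GFP reporter, after infection with retroviruses for Sox2, Klf4, Oct4 and c-Myc. In the 3 shECAD clones, numbered 4, 8 and 9, a further retrovirus carried a short hairpin RNA against E-cadherin. In the 3 control clones, numbered 2, 3 and 4, it carried a hairpin against luciferase. The cells were passaged onto feeders on day 6, the lines began as colonies taken on day 14, and they were kept on feeders, which were taken out before RNA extraction. Each line is 1 clone and gave 1 whole-transcript array, with a median log2 value between 5.11 and 5.30, so n = 3 clones per group throughout, and p-values reflect only how far clones differ, since no separate infections are described. Cdh1, the target of the hairpin, stood at 22.9% of the control level in the shECAD clones (95% interval 15.2% to 34.4%, limma adjusted p = 0.00683). All 12 markers of pluripotent cells lay above the median gene level in the means of both groups. They include Sox2 and Pou5f1, the Oct4 gene, which the retroviruses also carried. Whether the values of these genes include RNA from the retroviruses was not tested.

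In mammalian cells a methyl group is placed on the cytosine of CG dinucleotides. Uhrf1 recognises the hemimethylated DNA left by replication and brings Dnmt1, which restores the missing mark, while Dnmt3a and Dnmt3b methylate new sites with the help of the inactive partner Dnmt3l. TET enzymes oxidise the methyl group, and Tdg excises oxidised bases so that repair restores an unmodified cytosine. Mouse pluripotent cells are known for high levels of Tet1, Tet2, Dnmt3b and Dnmt3l, and for tolerating loss of these activities better than differentiated cells do.

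Uhrf1 and Tet1 fell in the shECAD clones, and the other 6 measured genes did not pass the test. The test was limma over all 19938 genes with Benjamini-Hochberg adjustment, and a gene was called at an adjusted p below 0.05. Thus 2 of 8 enzyme genes were called, both lower, against 3.12% of all genes called in either direction, 1.23% called lower and 1.9% called higher. The groups did not overlap in 4 of the 8, Uhrf1, Dnmt1, Tet1 and Tet2, all lower in the shECAD clones, against 23.6% of all genes without overlap and 12.5% without overlap and lower. An unadjusted p below 0.05 was reached by 5 of 8 enzyme genes and by 18% of all genes. The median log2 fold change was -0.64 over the 8 genes and 0.03 over all genes. The direction was downward in 6 of the 8. The genes were chosen with earlier results of these data known, so these counts are no independent evidence of a fall.

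**Figure D1:**
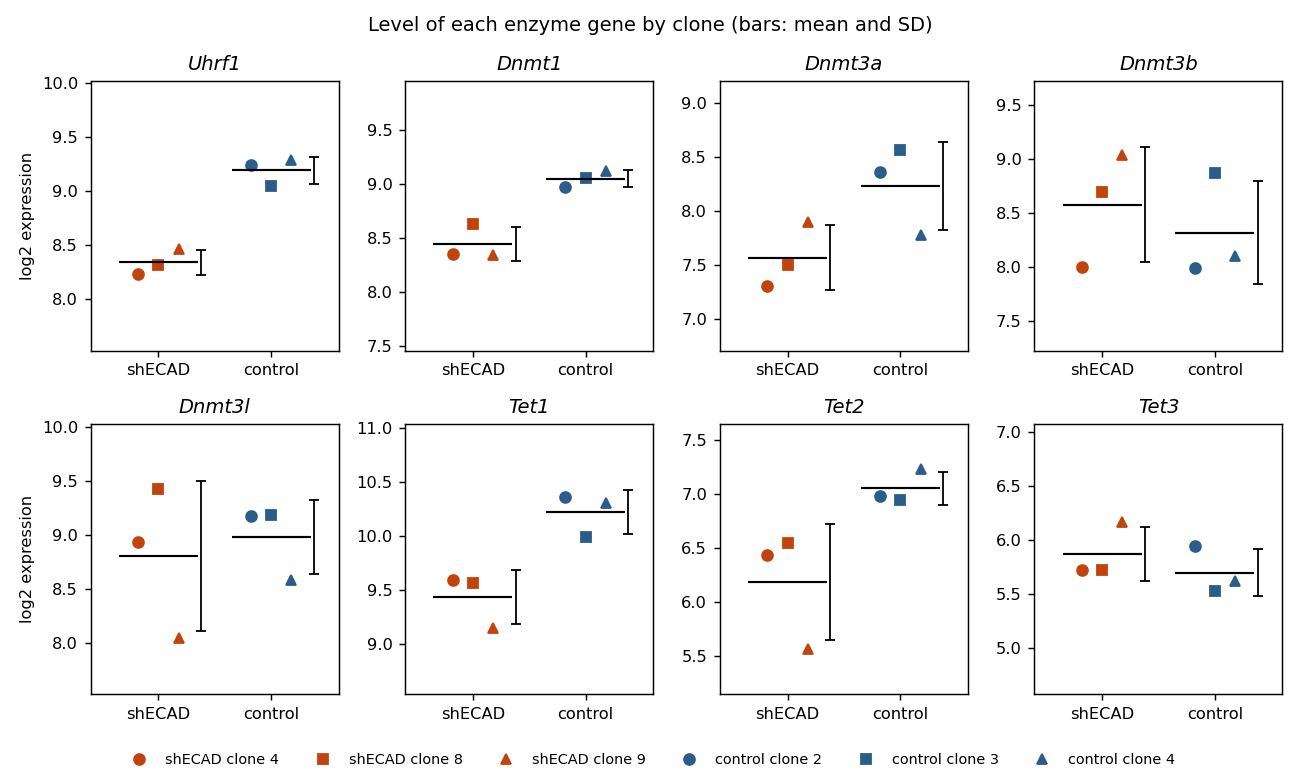
Log2 expression of the 8 measured enzyme genes by clone, with the 3 shECAD clones at the left and the 3 control clones at the right of each panel; lines are group means and bars the SD, and every panel spans the same number of log2 units. For Uhrf1, Dnmt1, Tet1 and Tet2 the highest shECAD clone lies below the lowest control clone, while the groups overlap in the other 4 genes.

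Among the maintenance genes, Uhrf1 showed the smallest p of the 8. Uhrf1 read 8.23, 8.32 and 8.47 in shECAD clones 4, 8 and 9, against 9.25, 9.05 and 9.29 in control clones 2, 3 and 4. The highest shECAD clone lay below the lowest control clone, and the SD within either group was small beside the gap. The group means were 8.34 ± 0.12 in shECAD clones and 9.19 ± 0.13 in control clones (SD, n = 3 each). Uhrf1 thus changed by -0.85 ± 0.15 on the log2 scale (SE, limma adjusted p = 0.0201), so that the shECAD level was 55.3% of the control level (95% interval 43.8% to 69.9%). A two-sided exact permutation test gave p = 0.1, the smallest that 3 clones against 3 can give.

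Dnmt1, the maintenance methyltransferase that Uhrf1 recruits, had no overlap between the groups but did not pass the test. It read 8.36, 8.63 and 8.35 in shECAD clones 4, 8 and 9, against 8.98, 9.06 and 9.13 in control clones 2, 3 and 4. The log2 fold change was -0.61 ± 0.15 (SE, limma adjusted p = 0.0628), with a 95% interval from -0.95 to -0.27. Dnmt1 crossed the threshold with median-centred arrays (limma adjusted p = 0.0463), among genes at or above the median level alone (0.0337), with an intensity trend and robust prior (0.0236) and with array weights (0.0338). It lay farther from the threshold after quantile normalization (limma adjusted p = 0.0902), with every probeset on its own (0.0902), with the Y-linked gene mean as a covariate (0.0961), with the fibroblast marker mean as one (0.998) and without variance moderation (0.190). With 1 clone left out, the adjusted p in limma ran from 0.0865 to 0.210.

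The de novo genes showed no call and wide spread between clones of a group. Dnmt3a read 7.30, 7.51 and 7.90 in shECAD clones 4, 8 and 9, against 8.37, 8.57 and 7.78 in control clones 2, 3 and 4. Control clone 4 lay below shECAD clone 9, which alone made the groups overlap, and the log2 fold change was -0.67 ± 0.23 (SE, limma adjusted p = 0.152). Dnmt3b, the de novo enzyme most typical of early embryonic cells, read 7.99, 8.69 and 9.04 in shECAD clones 4, 8 and 9, against 7.99, 8.87 and 8.10 in control clones 2, 3 and 4. Each group held low and high clones, and the log2 fold change was 0.26 ± 0.29 (SE, limma adjusted p = 0.697, 95% interval -0.39 to 0.90). Dnmt3l, the cofactor without catalytic activity, read 8.94, 9.43 and 8.05 in shECAD clones 4, 8 and 9, against 9.17, 9.18 and 8.58 in control clones 2, 3 and 4. Its highest and its lowest value were both in shECAD clones, the log2 fold change was -0.18 ± 0.31 (SE, limma adjusted p = 0.814), and without shECAD clone 9 it was 0.20. With 3 clones per group, the intervals of Dnmt3b and Dnmt3l leave room for changes of more than 0.8 on the log2 scale.

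Of the TET genes, Tet1, the main TET dioxygenase gene of mouse pluripotent cells, was lower in every shECAD clone on each of its 3 probesets. On the brightest (10369702) it read 9.59, 9.56 and 9.15 in shECAD clones 4, 8 and 9, against 10.36, 9.99 and 10.31 in control clones 2, 3 and 4. The lowest value was that of shECAD clone 9, and no shECAD clone reached the lowest control clone. The log2 fold change was -0.79 ± 0.18 (SE, limma adjusted p = 0.0462), a level of 58.0% of control (95% interval 44.0% to 76.4%). The probeset 10369690 read 9.35, 9.45 and 8.78 in shECAD clones 4, 8 and 9, against 10.25, 9.96 and 10.12 in control clones 2, 3 and 4, and the probeset 10369688 read 9.39, 9.39 and 8.80, against 10.05, 9.79 and 9.97. All 3 probesets placed shECAD clone 9 lowest and control clone 3 lowest among the controls. Their log2 fold changes were -0.79, -0.92 and -0.74. Tested as probesets among all 28853, with the adjustment over that larger number, none of the 3 passed (limma adjusted p = 0.0800, 0.0735 and 0.115), and Uhrf1 was the only one of the 11 probesets of enzyme genes that did (0.0401). Of all 28853 probesets, 241 passed. Without adjustment, each of the 3 Tet1 probesets lay below 0.05 in limma, as did 18% of all genes on their brightest probeset.

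**Figure D2:**
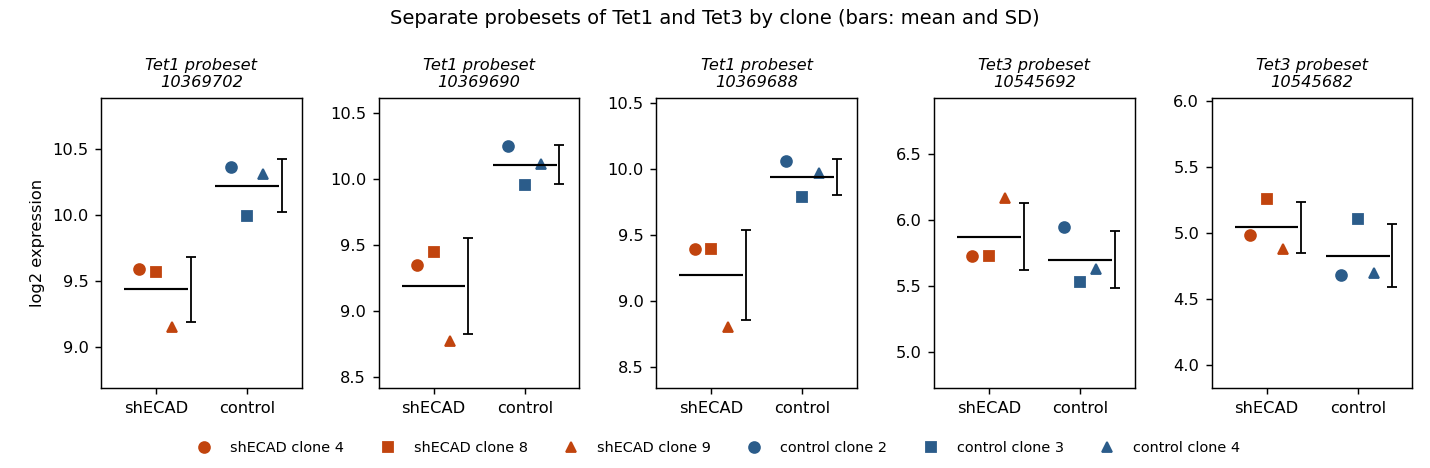
Log2 expression by clone for the 3 probesets of Tet1 and the 2 of Tet3, with the 3 shECAD clones at the left and the 3 control clones at the right of each panel; lines are means and bars the SD. Every Tet1 probeset is lower in the shECAD clones with no overlap, and both Tet3 probesets overlap.

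Tet2, a TET enzyme without the CXXC DNA-binding domain of its relatives, had the most negative log2 fold change of the 8 and the widest spread among shECAD clones of the 4 genes without overlap. Tet2 read 6.44, 6.54 and 5.56 in shECAD clones 4, 8 and 9, against 6.98, 6.95 and 7.23 in control clones 2, 3 and 4. The log2 fold change was -0.87 ± 0.24 (SE, limma adjusted p = 0.0850, 95% interval -1.41 to -0.33), and without shECAD clone 9, whose value lay farthest down, it was -0.56 (limma adjusted p = 0.144). Tet3, the TET enzyme prominent in the oocyte and zygote, read 5.73, 5.73 and 6.17 in shECAD clones 4, 8 and 9, against 5.94, 5.53 and 5.63 in control clones 2, 3 and 4. The groups overlapped, shECAD clone 9 was the highest clone here, and the log2 fold change was 0.17 ± 0.18 (SE, limma adjusted p = 0.676). Its dimmer probeset (10545682) gave 0.21 ± 0.18 (SE, limma adjusted p = 0.619).

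Tdg could not be read by itself, because 4 probesets carry both Tdg and the pseudogene Tdg-ps2 in the platform annotation. These shared probesets had log2 fold changes between 0.03 and 0.06, and none passed the test (limma adjusted p from 0.904 to 0.963). They cannot be assigned to either locus.

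**Figure D3:**
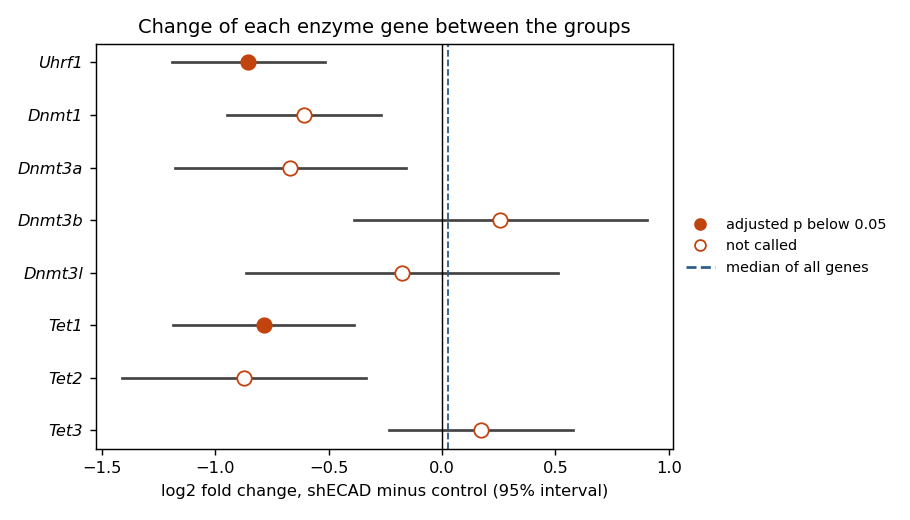
Log2 fold change, shECAD minus control, of the 8 measured enzyme genes with 95% intervals; filled points passed an adjusted p of 0.05, and the dashed line is the median of all genes. Uhrf1 at -0.85 and Tet1 at -0.79 are filled, and the intervals of Dnmt1, Dnmt3a and Tet2 also lie below 0.

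Whether Tet1 changed unequally with the other genes was tested on the difference of log2 values within each clone, over the 7 pairs that could be formed, with two-sided exact permutation tests. Tet1 minus Tet3 ran from 2.98 to 3.86 in shECAD clones and from 4.42 to 4.68 in control clones, without overlap, a difference of -0.96 ± 0.30 (SE, exact p = 0.1, the smallest possible, and 0.467 after adjustment over the 7 pairs). Tet1 minus Dnmt3b differed by -1.04 ± 0.58 (SE, exact p = 0.2, adjusted p = 0.467), with overlap. Tet1 minus Tet2 and Tet1 minus Uhrf1 differed by 0.09 ± 0.20 and 0.07 ± 0.21 (SE), with exact p of 0.7 and 0.9. With 20 labellings of the clones the exact test cannot give a p below 0.1, so it could call no pair whatever the size of the difference, and its p-values do not show that Tet1 and the other genes changed alike.

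The promoter sequences of the called genes are given because their CG dinucleotides are themselves the substrate of these enzymes, with that of Dazl, a germline gene known for promoter methylation and among the genes called lower. RefSeq (build GRCm38.p6) holds a promoter for all 9 named genes, in 16 entries, each running from 250 bases before a transcript's start to 50 bases after it. The Tet1 entry is chr10:62887275-62887574 (minus strand), the Uhrf1 entries are chr17:56303087-56303386 and chr17:56304063-56304362 (plus strand), and the Dazl entry is chr17:50293571-50293870 (minus strand). Each is written 5′ to 3′ along its gene, with CG dinucleotides in capitals.
Tet1: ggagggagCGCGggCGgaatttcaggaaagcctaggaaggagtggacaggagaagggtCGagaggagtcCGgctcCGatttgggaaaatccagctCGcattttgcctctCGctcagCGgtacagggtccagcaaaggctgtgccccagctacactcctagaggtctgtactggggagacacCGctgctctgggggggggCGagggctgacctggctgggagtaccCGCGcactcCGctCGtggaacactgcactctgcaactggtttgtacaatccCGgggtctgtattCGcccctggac
Uhrf1, start 1: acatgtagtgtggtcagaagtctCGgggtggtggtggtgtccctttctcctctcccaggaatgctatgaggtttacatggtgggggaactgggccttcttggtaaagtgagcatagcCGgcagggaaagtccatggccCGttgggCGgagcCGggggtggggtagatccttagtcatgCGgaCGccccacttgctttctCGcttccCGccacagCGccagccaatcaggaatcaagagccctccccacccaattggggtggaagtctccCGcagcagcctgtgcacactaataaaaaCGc
Uhrf1, start 2: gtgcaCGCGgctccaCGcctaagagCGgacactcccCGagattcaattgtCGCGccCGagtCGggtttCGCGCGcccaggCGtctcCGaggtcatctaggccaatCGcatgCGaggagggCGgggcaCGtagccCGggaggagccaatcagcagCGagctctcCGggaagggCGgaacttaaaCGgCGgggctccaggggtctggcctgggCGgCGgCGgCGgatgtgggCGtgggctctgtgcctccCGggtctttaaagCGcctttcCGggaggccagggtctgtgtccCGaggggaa
Dazl: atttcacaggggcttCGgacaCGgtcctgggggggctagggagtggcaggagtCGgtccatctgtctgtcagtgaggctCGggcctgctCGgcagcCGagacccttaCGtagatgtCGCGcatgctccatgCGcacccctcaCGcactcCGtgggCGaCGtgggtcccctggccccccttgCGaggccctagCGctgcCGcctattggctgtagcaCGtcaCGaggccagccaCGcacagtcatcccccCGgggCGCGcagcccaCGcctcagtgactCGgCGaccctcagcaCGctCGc
The Tet1 window holds 17 CG dinucleotides, the Uhrf1 windows 12 and 33, and the Dazl window 28, where the median of 32851 promoters is 7. As many or more were found in 31.4% of promoters for Tet1, in 39.6% and 8.56% for the Uhrf1 starts and in 14.2% for Dazl. Among the other enzyme genes the count ran from 57 in the Tet2 window to 2 in the first of 3 Dnmt1 windows. The CCAAT motif, searched on both strands, occurred 3 and 2 times in the Uhrf1 windows, once in that of Dazl and not in that of Tet1, and 37.4% of all promoters hold it. The arrays measured RNA, so the methylation of these sites was not analysed here.

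The counts in the lists of related genes stand beside 3.12% of all genes called in limma and 18% with an unadjusted p below 0.05. Among 12 partners of maintenance methylation, 0 were called in limma and 3 had an unadjusted p below 0.05. Zfp57, which keeps methylation at imprinted loci, read 8.52, 8.43 and 7.19 in shECAD clones 4, 8 and 9, against 9.49, 9.08 and 9.49 in control clones 2, 3 and 4, without overlap (log2 fold change -1.31 ± 0.31 SE, limma adjusted p = 0.0519). Cdca7, a partner of the remodeller Hells, had a log2 fold change of -0.52 (limma adjusted p = 0.103). Pcna, the replication clamp that Dnmt1 binds, had -0.17 ± 0.16 (SE) and Hells -0.43 ± 0.19 (SE), and neither passed (limma adjusted p = 0.645 and 0.275). The list's median log2 fold change was -0.26, beside 0.03 over all genes.

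Of 13 genes of base excision repair, which completes active demethylation, 0 were called in limma, 4 had an unadjusted p below 0.05, and the median was -0.16. The largest changes were in Parp1, a sensor of strand breaks (-0.65 ± 0.17 SE, limma adjusted p = 0.0676), and in Mbd4, a glycosylase of mismatched thymine (-0.56 ± 0.18 SE, limma adjusted p = 0.121). Of 14 measured partners, cofactor enzymes and proposed demethylation factors, 6 had an unadjusted p below 0.05 and 1 fell, the RNA-editing deaminase gene Apobec1, which read 5.47, 5.38 and 5.13 in shECAD clones 4, 8 and 9, against 5.84, 6.11 and 6.49 in control clones 2, 3 and 4 (log2 fold change -0.82 ± 0.19 SE, limma adjusted p = 0.0497). Apobec1 lost its call without any 1 clone other than control clone 2 (adjusted p up to 0.180), after quantile normalization, with the Y-linked gene mean as a covariate and with the fibroblast marker mean as one, where its log2 fold change was -0.16 (limma adjusted p = 0.998). Hmces, which binds abasic sites, had a more negative log2 fold change of -0.94 ± 0.27 (SE) and did not pass (limma adjusted p = 0.0939). Gadd45b, a stress-response gene proposed to act in demethylation, had 0.68, its relatives Gadd45g and Gadd45a had 0.58 and -0.55, and Cxxc4, a CXXC protein that binds Tet2, had 0.49 (limma adjusted p from 0.0937 to 0.229). The list's median was -0.01. Of 11 measured methyl-CpG readers and CXXC proteins, 0 were called in limma (2 with an unadjusted p below 0.05), and Zbtb33, which encodes Kaiso, had the largest change (0.55 ± 0.15 SE, limma adjusted p = 0.0851), ahead of Zbtb4 (0.46). Of 11 measured genes of the methyl donor cycle, 0 were called in limma (3 with an unadjusted p below 0.05), with Mtr, the methionine synthase gene, at -0.67 ± 0.17 (SE, limma adjusted p = 0.0632) and Shmt2 at -0.65.

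Several germline genes known for promoter methylation in somatic cells fell. The list was drawn up with this fall already known, so its counts are no independent evidence of its direction. Of 16 measured, 11 lay above the median gene in the control means and 5 in the shECAD means. Of the 16, 5 fell, 0 rose and 11 were not called, with a median log2 fold change of -1.03. Over all genes, 1.23% were called lower and 1.9% higher, and the median was 0.03. Dazl, an RNA-binding protein gene of germ cells, read 5.01, 4.84 and 4.00 in shECAD clones 4, 8 and 9, against 6.56, 6.97 and 5.99 in control clones 2, 3 and 4 (log2 fold change -1.89 ± 0.30 SE, limma adjusted p = 0.0123). The other 4 were Tex11 (-2.10), Rnf17 (-1.87), Sycp1 (-1.64) and the germ cell helicase gene Ddx4 (-1.12), with limma adjusted p-values from 0.0120 to 0.0318. With 1 clone left out the calls numbered 2 (control clone 3 or 4 left out), 3 (shECAD clone 4 or control clone 2), 4 (shECAD clone 9) or 5 (shECAD clone 8), and Dazl and Rnf17 were called each time. The median was -0.59 without shECAD clone 9. Sycp3, a synaptonemal complex gene, and Tdrd1, a piRNA pathway gene, changed by -0.16 and 0.01 on the log2 scale and were not called. Tdrd1 had means of 4.27 in shECAD and 4.26 in control clones. That is near the lower quartile of genes on each array (3.96 to 4.32), where a fall is hard to see. The shECAD and control means of Brdt (4.22 and 4.25) and Asz1 (3.24 and 3.93), not called either, lay in or below that range. In shECAD clone 9, Tex11 (3.37), Sycp1 (3.29) and Dazl (4.00) lay below that array's lower quartile of 4.32. The size of their fall there is therefore uncertain. Rnf17 (5.30) and Ddx4 (5.98) lay above it.

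**Figure D4:**
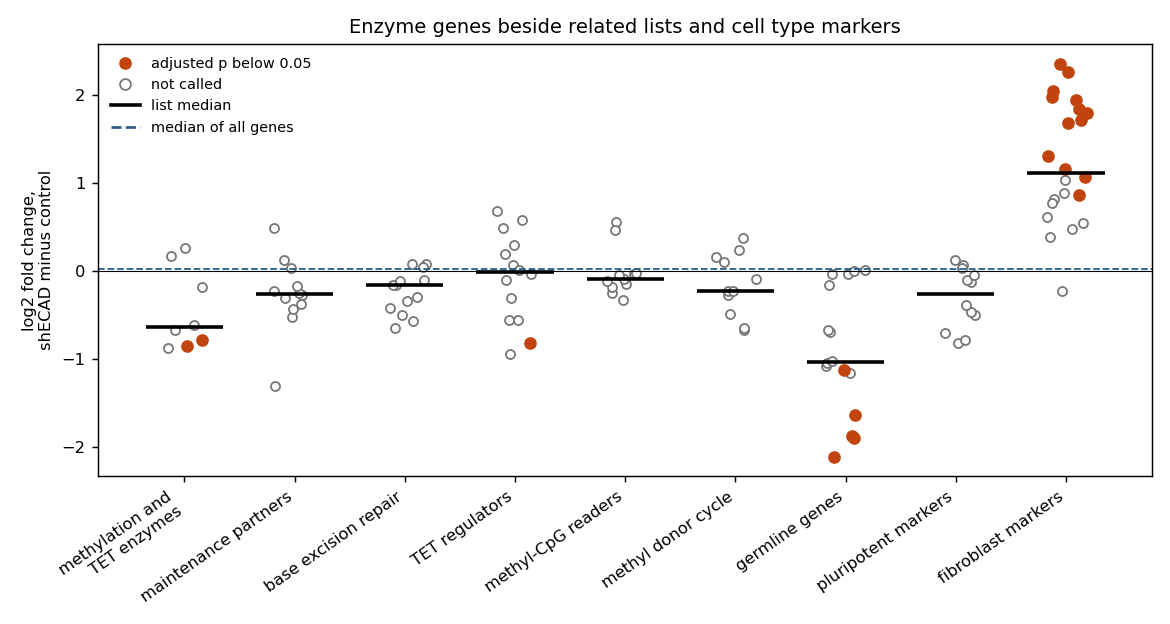
Log2 fold change, shECAD minus control, of every measured gene in the enzyme set and in 8 other lists, 1 point per gene; filled points passed an adjusted p of 0.05, black lines are list medians and the dashed line is the median of all genes. The enzyme genes have a median of -0.64, the germline genes -1.03 and the fibroblast markers 1.11.

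Fibroblast markers rose in the shECAD clones, while no pluripotent marker passed the test. The mean log2 level of 22 fibroblast and feeder markers lay between 7.05 and 7.38 in shECAD clones and between 5.35 and 6.42 in control clones. Of the 22, 0 fell and 13 rose, among them Lox, Postn and Col1a1, where 1.9% of all genes were called higher. The number that rose was 4 when shECAD clone 8 was left out, and 8 when shECAD clone 4, control clone 3 or control clone 4 was. The mean of the 12 pluripotent markers lay between 9.30 and 9.74 in shECAD clones and between 9.80 and 10.002 in control clones, also without overlap, though 0 of 12 were called in limma (5 with an unadjusted p below 0.05), with Esrrb at -0.81 and Fgf4 at -0.79. The list's median was -0.25. Of the 12 markers, 4 did not overlap between the groups, all lower in shECAD clones, beside 12.5% of all genes. They were Fgf4, Dppa4 (-0.70), Tdgf1 (-0.50) and Utf1 (-0.46). Sox2 had -0.39, while others had log2 fold changes near 0 or above it, among them Zfp42 (0.13), Lin28a (0.07), Nanog (0.04) and Pou5f1 (-0.05). In bulk RNA, fewer cells of a type and less RNA per cell cannot be told apart, and the part of these markers in the fall of Uhrf1 and Tet1 was not tested beyond the following values. Relative to each clone's mean over the pluripotent markers, the difference was -0.55 ± 0.21 (SE) for Uhrf1 and -0.48 ± 0.09 (SE) for Tet1, in each case with no overlap of the groups (exact p = 0.1, the smallest possible). On that scale Tet1 read -0.15 in each of the 3 shECAD clones, against 0.49, 0.19 and 0.31 in control clones 2, 3 and 4. With the fibroblast marker mean as a covariate, which itself does not overlap between the groups, the log2 fold change was -0.77 ± 0.36 (SE) for Uhrf1 and -0.84 ± 0.42 (SE) for Tet1, and limma called 0 of all genes (adjusted p = 0.998 for either, with 850 genes at an unadjusted p below 0.05).

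Further markers did not pass the test. Of 10 primitive endoderm and 8 measured trophoblast markers, 0 were called in limma (3 and 3 with an unadjusted p below 0.05), with Dab2 (0.99) and Gata6 (0.59), Ascl2 (0.995) and Krt7 (0.57) the largest. The mean of 3 measured Y-linked genes ran from 4.03 to 6.55 in shECAD clones and from 3.22 to 7.38 in control clones, high in shECAD clone 9 and control clone 3. Xist, the RNA of the inactive X chromosome, read 7.88, 7.31 and 5.87 in shECAD clones 4, 8 and 9, against 5.89, 5.02 and 4.42 in control clones 2, 3 and 4 (log2 fold change 1.91 ± 0.48 SE, limma adjusted p = 0.0609). With the Y-linked mean as a covariate Uhrf1 and Tet1 were called (-0.85, adjusted p = 0.0327, and -0.78, adjusted p = 0.0416, in limma). The Y-linked genes had a median log2 fold change of 0.03 between the groups, so this covariate could move the estimates little. It does not adjust for Xist, and the part of Xist was not tested.

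The calls did not all hold when a clone was left out, which also leaves fewer clones to test. Tet1 lost its call whichever clone was left out, with limma adjusted p-values of 0.0554 to 0.162, and its log2 fold change ran from -0.90 to -0.64. Uhrf1 kept its call without shECAD clone 9, control clone 2 or control clone 3 (limma adjusted p = 0.0324, 0.0459 and 0.0325) and lost it without shECAD clone 4, shECAD clone 8 or control clone 4 (0.0701, 0.0697 and 0.0931), with a log2 fold change from -0.93 to -0.80. The count over all genes shrank in the same fits, with 623 genes for all clones and between 146 (control clone 4 left out) and 543 (control clone 2 left out) for 5.

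**Figure D5:**
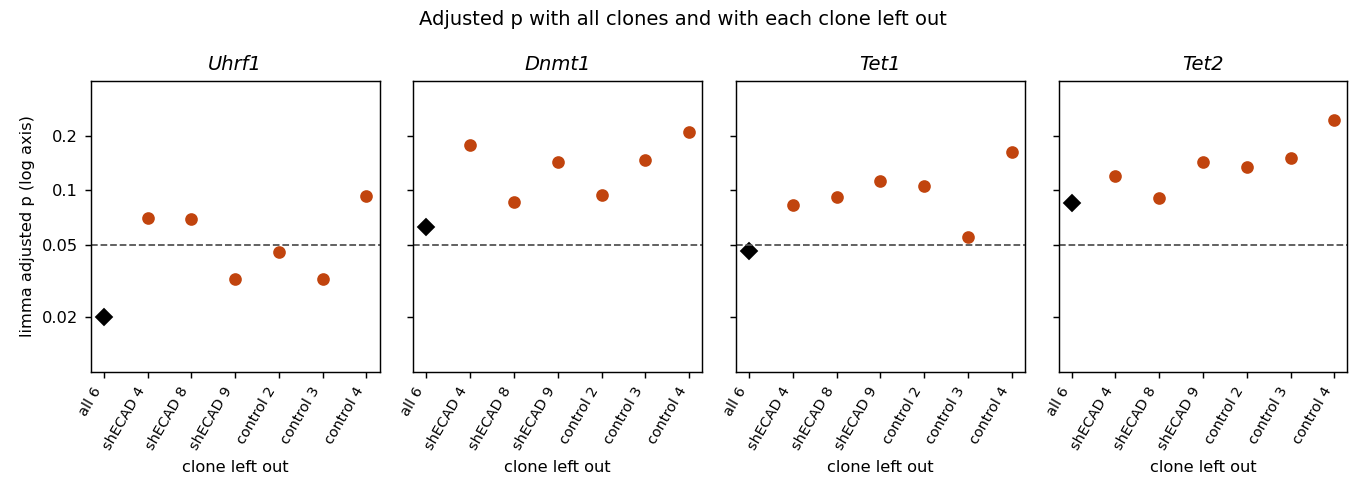
Limma adjusted p on a log axis for Uhrf1, Dnmt1, Tet1 and Tet2 with all 6 clones (diamond) and with each clone left out in turn (circles); the dashed line is 0.05. Uhrf1 stays below the line in 3 of the 6 fits with a clone left out, and Tet1 in 0.

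The profiles across the 6 clones are given as a description, since the 4 genes without overlap share the difference between the groups, which by itself raises the correlation between them. Tet1 had a Pearson r of 0.94 with Tet2, 0.90 with Dnmt1 and 0.88 with Uhrf1. Dnmt1 had one of 0.92 with Uhrf1 and 0.88 with Tet2, and Tet2 and Uhrf1 were the least alike of the 4 genes (0.72). Dnmt3a, whose groups overlap, had the same r of 0.72 with Uhrf1. Dnmt3b ran against Tet1 (-0.62) and Dnmt3l had 0.04 with Uhrf1. Among 3212 other genes at or above the median level with an SD over clones of at least 0.3, those most like Tet1 were Plekhh1, Gtf2a1 and Tmem39a (r = 0.995, 0.991 and 0.989), and 82 genes had an r above 0.95. Those most like Uhrf1 were Iah1, the protease inhibitor gene Spint1 and Dad1 (r = 0.995, 0.993 and 0.993), and those most like Dnmt1 were the DNA repair gene Brca2, Prune2 and Pick1 (r = 0.995, 0.995 and 0.994). For Tet2 they were Sema4b, Tmem131 and Sntb2 (r = 0.994, 0.992 and 0.992). Dnmt3l had no gene above 0.95, the nearest being Itgb1bp1 (r = 0.945), and Dnmt3b had 2, Mpdz and Usf3 (r = 0.970 and 0.967). Dnmt3a was nearest to Bcl11a (r = 0.979) and Tet3 to Rbm24 (r = 0.993).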

How the data were processed

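The authors deposited 1 log2 value per probeset and array, for which the submitters' processing notes name RMA and Partek. Their versions and settings, and any genome build, are not stated there. Per the labels' protocols, 100 ng of RNA went into the biotin-labelled cDNA. The table holds 28853 probesets, of which 21789 have 1 gene symbol in the platform annotation, 1621 several and 5443 none here, and 21698 matched RefSeq by Entrez identifier. The brightest of a gene's probesets with 1 symbol was used, and dim probesets were kept. The main test was limma 3.58.1 in R 4.3.3 (lmFit, eBayes, no covariate), adjusted by Benjamini and Hochberg over 19938 genes, and fold changes are shECAD minus control. The precision is limited by 3 clones per group.

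The enzyme genes and all gene lists were chosen with earlier results of these data known. Named genes are the 9 enzyme genes, Cdh1, in each list up to 8 called genes or else the 2 largest changes, and the 3 genes most like each enzyme gene; the other list members named were chosen after their values were seen. Of the planned 8 pairs with Tet1, 7 could be formed, as Tdg had no probeset of its own. Scaling, filters, probeset choice, variance prior, array weights, covariates and each clone left out were tried as alternatives, and the scale relative to pluripotent markers was added later, once the values were known. The limma fit was checked on simulated data for shECAD against control over 19938 genes. Of 50 genes changed at each size, it called 0% at a log2 change of 0.5, 24% at 0.75, 50% at 1 and 96% at 2, beside 3 false calls. Only these genes were changed there, with independent normal noise. In the real data 18% of genes had an unadjusted p below 0.05 in limma. The shares called are therefore not the sensitivity of the real comparison. Figures were drawn with matplotlib 3.10.9.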

Additional observations from a re-analysis of the deposited data

How the results depend on the processing

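The direction of Uhrf1, Tet1, Tet2, Dnmt1, Dnmt3a and Dnmt3b was the same under every alternative run. Dnmt3l turned to 0.092 with array weights, to 0.20 without shECAD clone 9 (range -0.49 to 0.20 with 1 clone left out) and to 0.13 relative to the pluripotent markers, and Tet3 to -0.036 with the fibroblast marker mean as a covariate. The 2 calls among enzyme genes became 1 after quantile normalization, where Tet1 lost its call (limma adjusted p = 0.0568), and 1 with every probeset on its own, where all calls numbered 241. They became 0 without variance moderation, with 3 calls over all genes and Cdh1 at -2.13 (adjusted p = 0.194), and 0 with the fibroblast marker mean, with 0 calls over all genes and Cdh1 at -2.22 (adjusted p = 0.998). They became 3, as Dnmt1 joined, with median centring, genes at or above the median level alone, an intensity trend and robust prior, or array weights. At an adjusted p below 0.1 they became 4, with 1278 genes, where Dnmt1 and Tet2 joined. Array weights gave 1067 genes. Median centring turned the split of all calls from 378 higher and 245 lower to 303 higher and 377 lower, and moved the median of all genes from 0.03 to -0.06. With 1 clone left out, the enzyme genes called ran from 0 to 1, all genes from 146 to 543, genes of the 6 pathway lists from 2 to 5 (6 with all clones) and enzyme probesets from 0 to 0 (1 with all clones, and 0 after quantile normalization). In the same fits Tet1 minus Tet2 ran from -0.081 to 0.20, Tet1 minus Dnmt3a from -0.40 to 0.19 and Tet1 minus Uhrf1 from -0.062 to 0.27, turning sign. The causes were not tested. No paired analysis was run, because the groups share only clone number 4 and the labels give no link between the lines that carry it.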
